A study of Mus musculus with 30 samples.

Results

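Haematopoietic stem cells (HSCs) of germ-free mice were compared with HSCs of mice labelled IL1R1 KO, both 2 months old. The comparison rests on 6 of the 30 RNA-seq libraries of the series, chosen by their labels, with 3 libraries a group. Germ-free animals carry no living microbes (the labels speak of the bowel). The other animals are labelled as lacking IL1R1, the receptor through which interleukin-1 signals. The sources used here do not give the allele, the strain and the microbial status of the KO-labelled animals, nor the surface markers of the sort. The 4 wild-type (WT) libraries of 2 months serve as an outside point, and 2 germ-free and 4 KO-labelled libraries of 1 year for the older age. No agent is named for any group. Each library was made from a bulk of sorted cells by Smart-seq2, which reads whole transcripts without marking strand. The labels do not tie libraries to animals. The p-values therefore cover sample-to-sample spread only, which could be technical.

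HSCs sit at rest in the bone marrow and renew all blood lineages. Interleukin-1 and microbial products can act on them through receptors that activate NF-kB and drive myeloid output. Both are known to contribute to the inflammatory state of the ageing marrow. The question for young mice was where the germ-free state and the IL1R1 KO label left different transcript levels in the same cell type.

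Estimated depth was 24.9 to 32.1 M reads in germ-free, 28.6 to 35.7 M in KO-labelled and 20.0 to 29.5 M in WT libraries of 2 months. HSC genes were present in all of them. Procr, the endothelial protein C receptor of HSCs, had normalized counts (reads per gene, scaled to compare libraries) of 4480, 4373 and 3210 in germ-free libraries. They were 3321, 4520 and 4114 in KO-labelled libraries. Hlf, a transcription factor of HSCs, lay at 6656 to 8230 in germ-free and 5548 to 7303 in KO-labelled libraries. Myeloid transcripts split the libraries within each group. Mpo, the myeloperoxidase of granulocyte precursors, stood at 56547, 4.33 and 35472 in germ-free, 29251, 3075 and 23626 in KO-labelled, and 392, 73276, 1159 and 60867 in WT libraries. Replicate 2 was thus the low one in both the germ-free and the KO-labelled group, and the difference of -2.55 ± 2.67 (SE) on the log2 scale did not pass (limma adjusted p = 0.71). Genes described below split the WT libraries along the same line. WT libraries of high Mpo had more Hspa1a, Hspb1 and mt-Nd1 than the others, and less Dnajb1, Fkbp5, Tsc22d3, Klf9 and Per1. Among germ-free libraries, that of low Mpo was the highest for Hspa1a, Dnajb1, Zbtb16, Klf9 and Per1. What set this split was not tested.

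The targeted gene did not separate the groups. Il1r1 (ENSMUSG00000026072, chromosome 1, 40225080 to 40317257, GRCm38) had normalized counts of 218, 277 and 111 in germ-free, 186, 247 and 262 in KO-labelled, and 256, 142, 182 and 137 in WT libraries. The 3 ranges overlapped, and the germ-free minus KO-labelled difference was -0.28 ± 0.32 (SE; limma adjusted p = 0.74). A gene total does not show which exons were read, and the sources used here do not name the deleted part. The genotype therefore could not be checked, and every direction below is between libraries with these labels. Of 72 genes tested within 5 Mb of Il1r1, limma called 0, with 8 at an unadjusted p under 0.05 and a lowest adjusted p of 0.136.

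Between germ-free and KO-labelled HSCs, 228 of 16958 genes passed (limma, Benjamini-Hochberg adjusted p under 0.05), which is 1.34%. Of these, 88 were higher in germ-free HSCs (0.519%) and 140 lower (0.826%). In germ-free HSCs, 6 of 20 heat shock chaperones and 5 of 20 sterol synthesis genes were lower, and 5 of 16 genes that glucocorticoids induce were higher. Of 32 genes of the HSC ageing signature, 8 were lower and 2 higher. Limma called 0 of 28 genes of the interleukin-1 family and 0 of 30 microbial sensors, with 6 and 4 at an unadjusted p under 0.05, against 2359 of all 16958 genes (13.9%). The median log2 difference was 1.15 among the higher and -0.90 among the lower genes, against 0.00 over all genes tested. In 226 of the 228 the 3 germ-free libraries did not overlap the 3 KO-labelled ones, against 16.0% of all genes tested. These medians and this share follow largely from calling the genes on the same libraries, and add no support to the calls. The spread was estimated over all 30 libraries, and with only the 6 libraries compared 43 genes passed, 29 higher and 14 lower. Without the 4 libraries of high Mpo (replicates 1 and 3 of both groups), 113 passed, 32 higher and 81 lower, with 1 library left in each group. Of 65 called genes followed through all settings, 22 passed also with only the 6 libraries, and 34 passed whichever of the 6 libraries was left out.

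**Figure D1:**
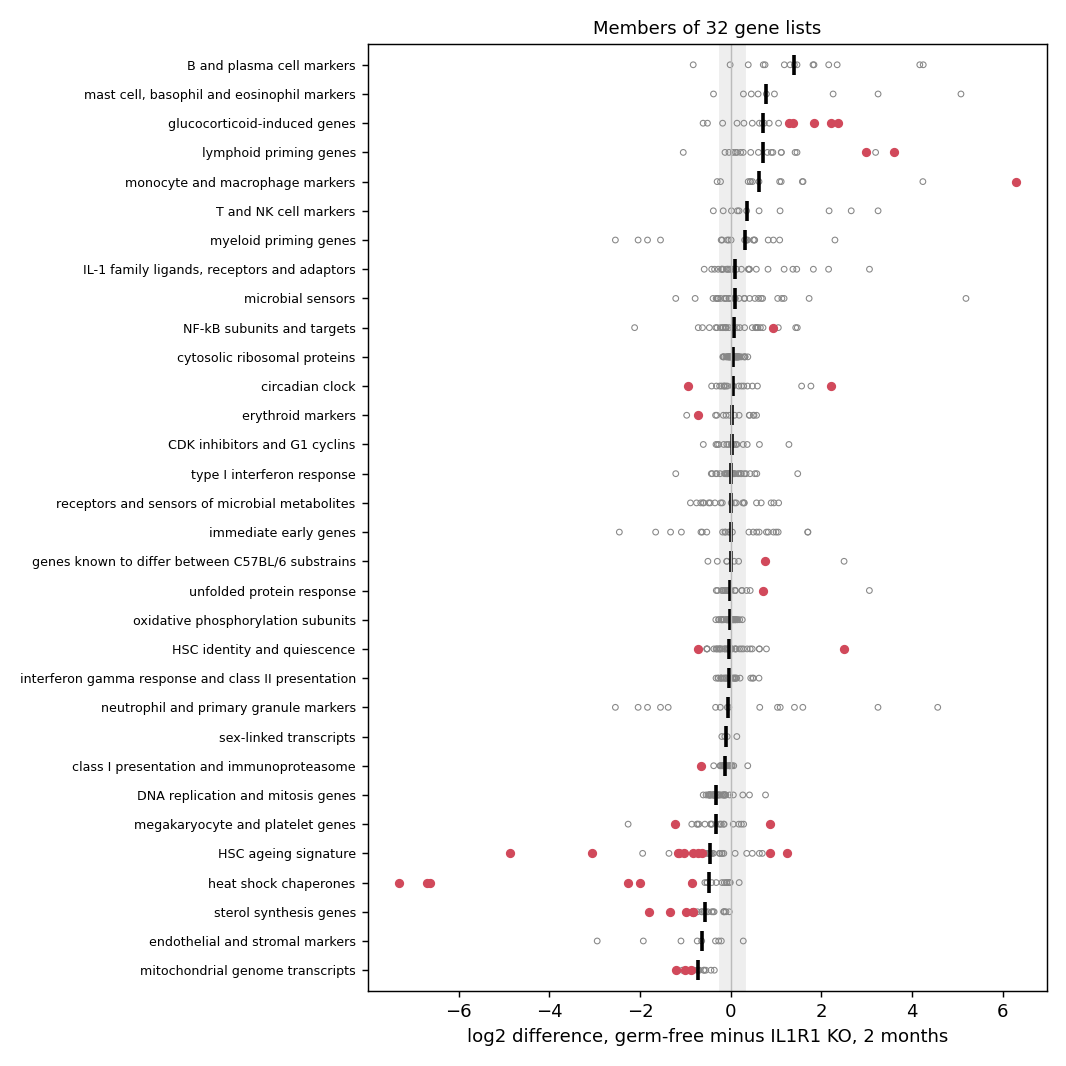
Log2 difference, germ-free minus KO-labelled HSCs at 2 months, of each tested member of 32 gene lists (one row a list). Filled points passed an adjusted p of 0.05, open points did not, the black bar is the list's median and the grey band is the interquartile range of all genes tested. The heat shock and sterol rows hold called genes on the left of 0 alone, and the glucocorticoid row on the right alone.

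Heat shock chaperones bind unfolded proteins and are transcribed by the heat shock factor HSF1 when proteins unfold. Their promoters are known to carry inverted GAA repeats that HSF1 binds. Start-site windows of 3 of the called chaperones are shown, with GAANNTTC, a pair of facing repeats, in capitals. Each runs 5′ to 3′ on the gene's strand, from 250 bases before to 50 after the RefSeq start on GRCm38.p6. Hspa1a is at chr17:34972107-34972406 on the minus strand, Hspb1 at chr5:135887669-135887968 and Hspe1 at chr1:55087898-55088197, both on the plus strand.
Hspa1a: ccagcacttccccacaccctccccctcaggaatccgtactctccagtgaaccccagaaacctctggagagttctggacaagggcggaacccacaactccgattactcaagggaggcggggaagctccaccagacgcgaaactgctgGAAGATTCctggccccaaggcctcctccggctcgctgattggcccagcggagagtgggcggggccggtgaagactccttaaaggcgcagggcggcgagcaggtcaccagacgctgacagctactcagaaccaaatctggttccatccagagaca
Hspb1: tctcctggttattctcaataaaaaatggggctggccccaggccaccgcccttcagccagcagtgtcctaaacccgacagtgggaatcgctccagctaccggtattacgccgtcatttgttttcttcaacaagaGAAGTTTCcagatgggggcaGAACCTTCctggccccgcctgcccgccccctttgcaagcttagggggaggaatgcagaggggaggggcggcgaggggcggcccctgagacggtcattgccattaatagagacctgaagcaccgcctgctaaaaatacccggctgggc
Hspe1: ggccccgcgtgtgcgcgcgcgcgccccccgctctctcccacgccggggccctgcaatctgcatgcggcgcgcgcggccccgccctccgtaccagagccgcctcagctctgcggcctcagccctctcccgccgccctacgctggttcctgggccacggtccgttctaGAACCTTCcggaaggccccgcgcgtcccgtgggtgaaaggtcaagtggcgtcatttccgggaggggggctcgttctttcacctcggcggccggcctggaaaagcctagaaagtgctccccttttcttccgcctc
The unit, which reads the same on both strands, stood once in the windows of Hspa1a and Hspe1 and at 2 places in that of Hspb1. Of the 6 called chaperones, 5 had it in a window and Dnajb1 did not. In Hsph1 it lay after the start, at base 42 or 21 by start site, and Hspa1a and Hspa1b are near-identical copies. The unit was present in 7.86% of 32851 RefSeq windows of this length. Windows of the uncalled chaperones were not tallied, so these shares do not compare called with uncalled ones. A match is a description of letters and not a test of binding.

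Of 20 heat shock chaperones tested, 6 were lower in germ-free HSCs and 0 higher, with a median of -0.47. Hspa1a, the inducible Hsp70, had normalized counts of 813, 1382 and 749 in germ-free libraries, against 108693, 71138 and 122345 in KO-labelled libraries. WT libraries lay between, at 3650, 16176, 3428 and 15282. The germ-free minus KO-labelled difference was -6.70 ± 1.02 (SE; limma adjusted p = 5.92e-04, and 4.87e-05 with only the 6 libraries). Its neighbour Hspa1b, a near-identical copy that can share reads with it, differed by -6.62 ± 1.24 (SE). The windows before these 2 genes were 98.7% identical.

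The small chaperone Hspb1 had normalized counts of 48.0, 38.7 and 0.932 in germ-free, 1876, 1429 and 5632 in KO-labelled, and 207, 309, 76.9 and 262 in WT libraries. No library of a group entered the range of another, and the difference was -7.31 ± 0.91 (SE; limma adjusted p = 1.79e-05, or 0.132 with only the 6 libraries). Against WT, it was -3.62 ± 0.85 in germ-free and 3.70 ± 0.85 in KO-labelled libraries (SE; adjusted p = 0.044 and 0.0497). Dnajb1, an Hsp40 that hands clients to Hsp70, had 5011, 11961 and 4799 in germ-free, 22915, 23244 and 59049 in KO-labelled, and 10627, 7533, 12056 and 8220 in WT libraries. Germ-free libraries overlapped WT, and KO-labelled libraries lay above both. The germ-free minus KO-labelled difference was -2.26 ± 0.35 (SE; adjusted p = 5.00e-04, or 0.276 with only the 6 libraries). The KO-labelled minus WT difference was 1.74 ± 0.33 (SE; adjusted p = 0.0093).

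Hsph1, an Hsp110 that recharges Hsp70, stood at 1334, 1046 and 1331 in germ-free and 4187, 3158 and 8899 in KO-labelled libraries. Hspe1, the mitochondrial co-chaperonin, stood at 2391, 2536 and 2077 against 3714, 3305 and 6042. Their differences were -2.00 ± 0.44 and -0.85 ± 0.18 (SE; limma adjusted p = 0.0156 and 0.0105). KO-labelled replicate 3 was the highest library for Hspb1, Dnajb1, Hsph1 and Hspe1. Without it, Hsph1 and Hspe1 no longer passed and 4 chaperones of the list did. Hsph1 did not pass without germ-free replicate 2 either, nor Hspe1 without germ-free replicate 3, and neither passed with only the 6 libraries (adjusted p = 0.0786 and 0.272). The abundant chaperones Hspa8 and Hsp90aa1 did not pass, at -0.53 ± 0.21 and -0.86 ± 0.23 (SE; adjusted p = 0.24 and 0.059). Against WT, limma called 3 members higher and 0 lower in KO-labelled libraries (0.242% and 0.165% of all genes), and 0 higher and 1 lower in germ-free libraries (0.301% each way). These comparisons share libraries with the one above.

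**Figure D2:**
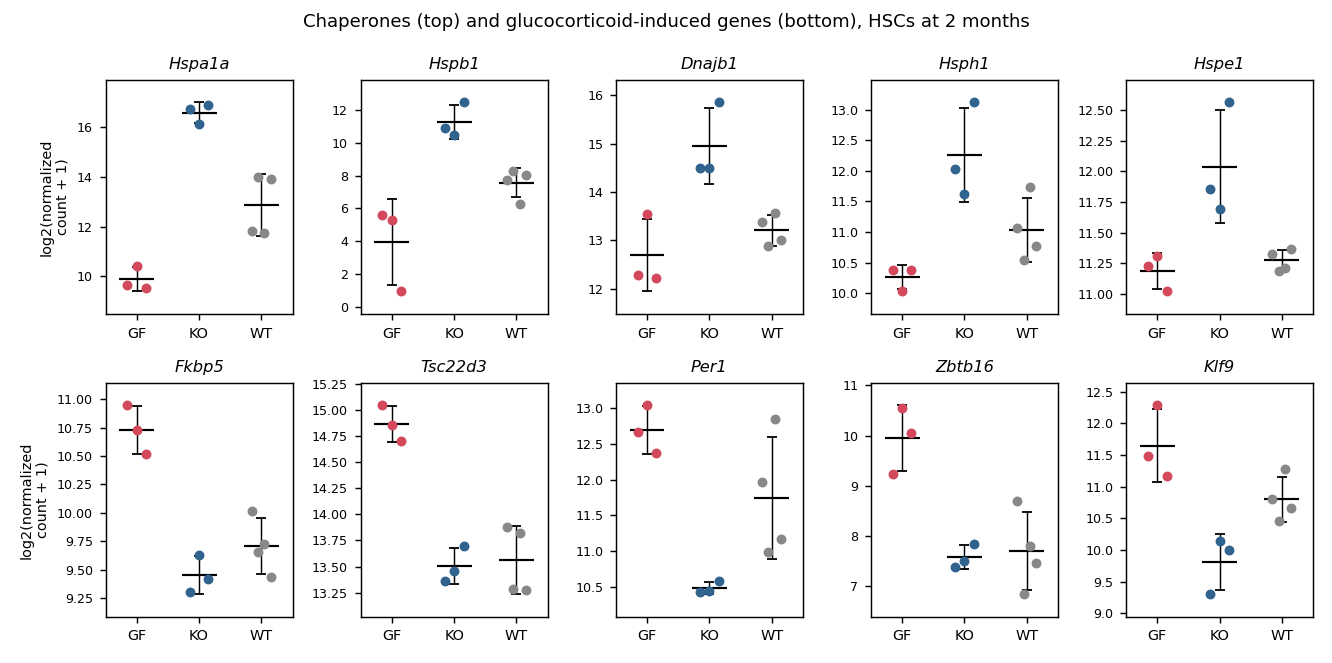
Log2(normalized count + 1) in single libraries of 2 months for 5 chaperones (top) and 5 glucocorticoid-induced genes (bottom). GF is germ-free (n = 3), KO is labelled IL1R1 KO (n = 3), WT is wild type (n = 4), points are libraries, bars are means and whiskers ± SD, and each axis has its own range. Germ-free points lie below all KO-labelled points in the top row and above them in the bottom row.

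Glucocorticoids, the adrenal stress hormones, act through a nuclear receptor that switches on a small set of genes in most blood cells. Of 16 such genes tested, 5 were higher in germ-free HSCs and 0 lower, with a median of 0.72. Fkbp5, a chaperone partner that restrains the receptor, had normalized counts of 1969, 1692 and 1465 in germ-free libraries. KO-labelled libraries had 630, 793 and 684, and WT libraries 1038, 804, 847 and 690. Every germ-free library was above every other, and the difference from KO-labelled libraries was 1.28 ± 0.23 (SE; limma adjusted p = 0.00154). Tsc22d3, the glucocorticoid-induced leucine zipper, had 33816, 29716 and 26719 in germ-free, 10532, 11273 and 13322 in KO-labelled, and 15030, 10000, 14476 and 9884 in WT libraries. The difference was 1.36 ± 0.23 (SE; adjusted p = 0.00125). The germ-free minus WT differences were 1.02 ± 0.21 for Fkbp5 and 1.31 ± 0.22 for Tsc22d3 (SE; adjusted p = 0.014 and 0.0011).

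Zbtb16, a zinc finger repressor, stood at 604, 1489 and 1054 in germ-free and 166, 182 and 229 in KO-labelled libraries, a difference of 2.36 ± 0.46 (SE; limma adjusted p = 0.00413). Klf9, a Krüppel-like factor, stood at 2878, 4979 and 2299 against 631, 1124 and 1024, a difference of 1.83 ± 0.33 (SE; adjusted p = 0.0017). For Klf9, WT libraries lay between, at 1786, 1405, 2480 and 1614, one of them inside the germ-free range. Per1, a clock gene that glucocorticoids also induce, had 6508, 8433 and 5326 in germ-free, 1371, 1393 and 1533 in KO-labelled, and 4018, 2027, 7430 and 2308 in WT libraries. Its difference of 2.21 ± 0.46 (SE; adjusted p = 0.0106) ended as a call without germ-free replicate 2. Without the 4 libraries of high Mpo, 1 glucocorticoid-induced gene and 1 chaperone of the lists passed, with 1 library left a group.

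Sterol synthesis genes make cholesterol and its precursors and are switched on by SREBP2 when cell sterol falls. Of 20 tested, 5 were lower in germ-free HSCs and 0 higher, with a median of -0.57, and all 20 had a negative difference. Dhcr7, which makes the last step to cholesterol, had normalized counts of 471, 439 and 487 in germ-free, 1671, 1600 and 1637 in KO-labelled, and 1064, 999, 2522 and 1859 in WT libraries. The germ-free libraries lay below all others, by -1.81 ± 0.25 (SE; limma adjusted p = 4.02e-05) against KO-labelled and by -1.68 ± 0.23 (SE; adjusted p = 7.00e-05) against WT. Sqle, squalene epoxidase, had 1188, 1281 and 1057 in germ-free, 2273, 2415 and 2286 in KO-labelled, and 1886, 2269, 1979 and 2029 in WT libraries. Its difference was -0.99 ± 0.17 (SE; adjusted p = 0.00148) against KO-labelled and -0.80 ± 0.16 (SE; adjusted p = 0.012) against WT.

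Msmo1, a sterol demethylating oxidase, stood at 821, 516 and 597 in germ-free and 1442, 1579 and 1791 in KO-labelled libraries (-1.33 ± 0.25, SE; limma adjusted p = 0.0023). Insig1, the sterol-regulated brake on SREBP, stood at 876, 1541 and 1017 against 1706, 2091 and 2211 (-0.84 ± 0.18, SE; adjusted p = 0.00882). Idi1, an isomerase of the isoprenoid precursors, stood at 1257, 1394 and 1075 against 2058, 2303 and 2272 (-0.84 ± 0.21, SE; adjusted p = 0.0395). The call for Idi1 ended with any of the 6 libraries left out, and that for Insig1 without germ-free replicate 1 or 3 or KO-labelled replicate 3. Hmgcs1, an early enzyme of the path, did not pass, at -0.74 ± 0.24 (SE; adjusted p = 0.13). Against WT, 0 members were called either way in KO-labelled libraries.

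**Figure D3:**
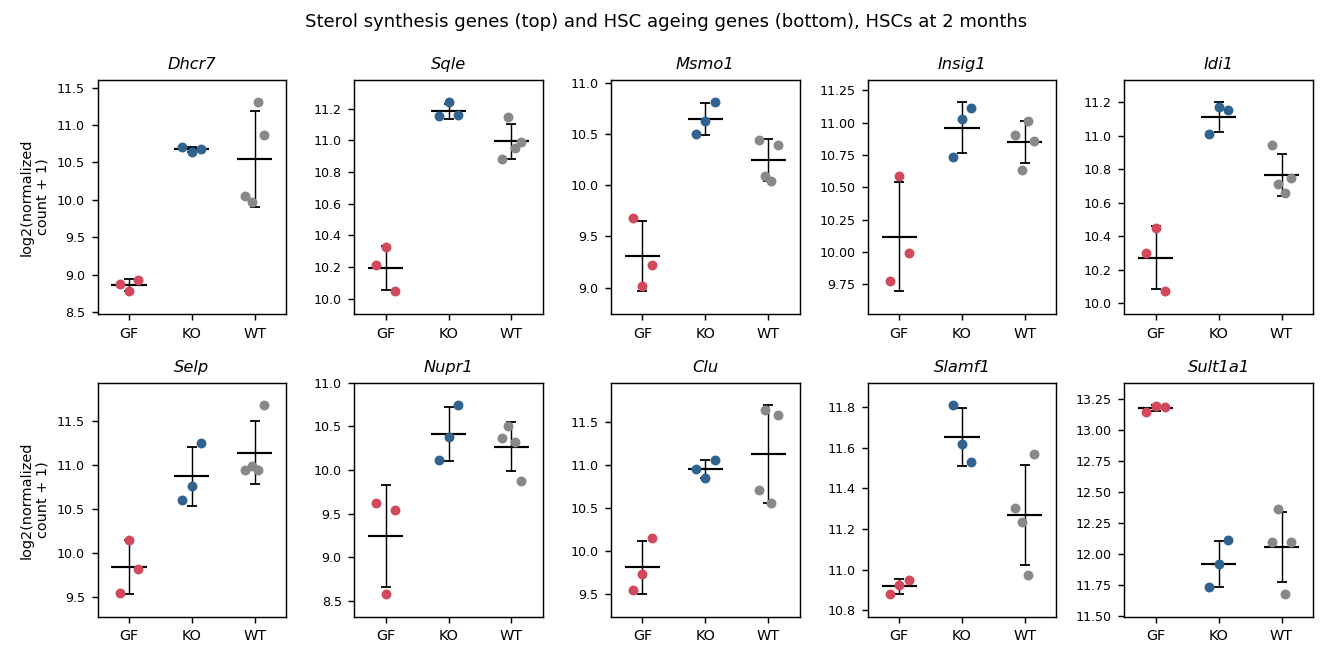
Log2(normalized count + 1) in single libraries of 2 months for 5 sterol synthesis genes (top) and 5 genes of the HSC ageing signature (bottom). GF is germ-free (n = 3), KO is labelled IL1R1 KO (n = 3), WT is wild type (n = 4), points are libraries, bars are means and whiskers ± SD, and each axis has its own range. For Dhcr7, Sqle and Selp every germ-free point is below every other, and for Sult1a1 every germ-free point is above.

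The HSC ageing signature collects genes known to be higher in HSCs of old mice. Of its 32 members, 8 were lower in germ-free HSCs of 2 months and 2 higher, with a median of -0.46. Selp, the adhesion receptor P-selectin, had normalized counts of 743, 1135 and 902 in germ-free, 1556, 1731 and 2434 in KO-labelled, and 1968, 2038, 1973 and 3275 in WT libraries. Germ-free libraries were below the rest, by -1.03 ± 0.19 (SE; limma adjusted p = 0.00235) against KO-labelled and by -1.30 ± 0.18 (SE; adjusted p = 7.00e-05) against WT. Nupr1, a stress-induced chromatin protein, had 787, 380 and 743 in germ-free, 1112, 1332 and 1711 in KO-labelled, and 1325, 1455, 1282 and 936 in WT libraries (-1.17 ± 0.21, SE, against KO-labelled; adjusted p = 0.00193). Slamf1, the CD150 receptor used to sort HSCs, stood at 1883, 1942 and 1977 in germ-free, 3583, 3141 and 2955 in KO-labelled, and 2528, 2411, 2008 and 3037 in WT libraries. Its difference from KO-labelled libraries was -0.73 ± 0.14 (SE; adjusted p = 0.00308), and that from WT did not pass (-0.35 ± 0.13, SE; adjusted p = 0.32).

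Rbpjl, a relative of the Notch effector Rbpj, was near 0 in germ-free libraries, with 3.50, 0.671 and 0 normalized counts, against 13.3, 59.7 and 217 in KO-labelled and 25.4, 81.0, 90.0 and 82.5 in WT libraries. Its difference from KO-labelled libraries was -4.87 ± 0.62 (SE; limma adjusted p = 1.45e-05, or 0.207 with only the 6 libraries). The secreted chaperone Clu, the tight junction protein Cldn12, the oncostatin M receptor Osmr and Clca3a1, of the chloride channel accessory family, were the other lower members, at -1.15, -0.83, -3.06 and -0.65 (adjusted p = 0.0137, 0.0219, 0.00932 and 0.0152). Of the 6 fits that left out a library, the call ended in 3 for Clu, 3 for Cldn12, 4 for Clca3a1 and 0 for Osmr. None of these 4 passed with only the 6 libraries. The higher members were Sult1a1 and Itgb3. Sult1a1, a phenol sulfotransferase, had 9066, 9349 and 9273 in germ-free, 3414, 3876 and 4421 in KO-labelled, and 4395, 5261, 3278 and 4388 in WT libraries (1.25 ± 0.13, SE, against KO-labelled; adjusted p = 3.14e-07). Itgb3, the platelet integrin beta 3, had 2120, 2322 and 2964 in germ-free against 1198, 1379 and 1492 in KO-labelled libraries (0.85 ± 0.16, SE; adjusted p = 0.00234). Against WT, 6 members were lower and 2 higher in germ-free HSCs, and 0 were called in KO-labelled HSCs. With only the 6 libraries, 1 of the 10 calls of the signature was kept, that of Sult1a1, and without the 4 libraries of high Mpo 5 members were called.

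Cxcr4, the receptor that holds HSCs in the marrow by sensing CXCL12, was higher in germ-free HSCs among 35 HSC identity and quiescence genes. Its normalized counts were 936, 534 and 801 in germ-free, 141, 134 and 115 in KO-labelled, and 168, 106, 227 and 127 in WT libraries. Every germ-free library was above every other, by 2.50 ± 0.36 (SE; limma adjusted p = 1.15e-04) against KO-labelled and 2.28 ± 0.34 (SE; adjusted p = 2.12e-04) against WT. The call held with each of the 6 libraries left out and with only those 6 (adjusted p = 0.0157). Cxcr4 and Slamf1 were the 2 members of that list that passed, 1 each way, and the list's median was -0.04.

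Genes at the start of the lymphoid path also held calls, at low levels. Of 20 lymphoid priming genes, 2 were higher in germ-free HSCs and 0 lower, with a median of 0.71. Il7r, the interleukin-7 receptor, had normalized counts of 89.7, 22.8 and 165 in germ-free, 5.05, 4.15 and 5.52 in KO-labelled, and 5.82, 54.4, 10.1 and 43.7 in WT libraries (3.60 ± 0.83, SE, against KO-labelled; limma adjusted p = 0.0197). Blnk, an adaptor of the B cell receptor, had 256, 92.1 and 228 in germ-free, 24.5, 18.8 and 21.4 in KO-labelled, and 57.3, 36.5, 90.8 and 40.1 in WT libraries (2.97 ± 0.67, SE; adjusted p = 0.0154). Germ-free replicates 1 and 3 were the high ones for both genes, and both calls ended without either of them. The calls also ended without KO-labelled replicate 2, and that of Il7r without KO-labelled replicate 1 or 3. The summed level of B and plasma cell markers was 9968, 1654 and 19018 in germ-free, 15193, 1866 and 2683 in KO-labelled and 1487 to 9231 in WT libraries, with a list median of 1.40, 13 of 15 members positive and 0 called by limma (3 at an unadjusted p under 0.05). KO-labelled replicate 1 was thus above germ-free replicate 1 in this sum, which abundant transcripts can dominate, and below it in Il7r and Blnk. The mean log2 level of the same markers, which weighs each alike, ran from 3.32 to 8.07 in germ-free and from 3.92 to 5.58 in KO-labelled libraries. None of the 15 was at 0 in all 6 libraries, their part in the result was not tested, and in such bulk samples fewer cells of a type and less RNA per cell cannot be told apart.

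Macrophage complement genes had large differences from near 0. C1qb, a chain of complement C1q, had normalized counts of 180, 45.6 and 216 in germ-free, 2.89, 0 and 0 in KO-labelled, and 31.6, 129, 90.9 and 51.2 in WT libraries (6.28 ± 1.08, SE, against KO-labelled; limma adjusted p = 0.00116). The germ-free and WT ranges overlapped, and KO-labelled minus WT was -5.42 ± 1.01 (SE; adjusted p = 0.0062). C1qc, another chain, and Fcna, a ficolin of macrophages, differed by 5.65 ± 1.16 and 6.31 ± 1.40 (SE; adjusted p = 0.0072 and 0.0146), and the call of Fcna ended without replicate 1 or 3 of either group. Of 13 monocyte and macrophage markers, 1 was called, C1qb, and the median was 0.62. Their summed level was 26271, 2416 and 18815 in germ-free, 8463, 2302 and 15321 in KO-labelled, and 2164 to 32434 in WT libraries. Adgre1, the macrophage marker F4/80, was listed at 0 in replicate 2 of both groups, at 258 and 122 in the other germ-free and 16.9 and 63.9 in the other KO-labelled libraries. The part of such cells in the result was not tested.

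The remaining marker lists of other cells held 1 call. Car2, a carbonic anhydrase of erythroid and stem cells, had normalized counts of 38997, 40560 and 40691 in germ-free, 61264, 62882 and 76119 in KO-labelled, and 45267 to 50007 in WT libraries (-0.73 ± 0.10, SE, against KO-labelled; limma adjusted p = 2.53e-05). It was the 1 called member of 14 erythroid markers, whose median was 0.03. Summed erythroid markers stood at 53396, 56447 and 65018 in germ-free and 78690, 68432 and 124499 in KO-labelled libraries. Limma called 0 of 16 neutrophil, 11 T and NK cell, 9 mast cell, basophil and eosinophil, and 9 endothelial and stromal markers, with 1, 2, 2 and 2 at an unadjusted p under 0.05. Summed neutrophil markers stood at 102571, 6118 and 163026 in germ-free and 63661, 12275 and 45161 in KO-labelled libraries. With their level as a covariate 245 genes passed in all, and 7 chaperones, 5 glucocorticoid-induced, 5 sterol synthesis and 10 ageing signature genes.

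Genes closest to the labels of the 2 groups gave no call at 2 months. Limma called 0 of 28 genes of interleukin-1 ligands, receptors and adaptors (median 0.09), with 6 at an unadjusted p under 0.05. It called 0 of 30 microbial sensors (median 0.09, 4 at an unadjusted p under 0.05) and 0 of 21 receptors of microbial metabolites (median 0.01, 3 under 0.05). Tlr4, the receptor for bacterial lipopolysaccharide, had normalized counts of 605, 925 and 468 in germ-free and 593, 676 and 710 in KO-labelled libraries (-0.04 ± 0.26, SE; adjusted p = 0.97). Tlr2, the receptor for bacterial lipoproteins, had 675, 784 and 997 against 598, 687 and 678 (0.31 ± 0.20, SE; adjusted p = 0.52). Such differences were not detectable here, which does not show that the levels were alike.

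Of 33 type I interferon genes and 28 interferon gamma and class II genes, limma called 0 (medians 0.01 and -0.04, 1 and 3 at an unadjusted p under 0.05). Isg15, an interferon-induced ubiquitin-like protein, had normalized counts of 142, 187 and 155 in germ-free and 130, 161 and 64.5 in KO-labelled libraries (0.53 ± 0.29, SE; limma adjusted p = 0.41). Cd74, the class II invariant chain, had 6343, 5666 and 7902 against 3112, 6634 and 10511 (0.13 ± 0.31, SE; adjusted p = 0.89). Among 29 NF-kB subunits and targets 1 was called. Rel, the c-Rel subunit, had 1133, 1627 and 996 in germ-free against 682, 546 and 704 in KO-labelled libraries (0.93 ± 0.22, SE; adjusted p = 0.0265), and WT libraries spanned 912 to 1608. The call for Rel ended in 4 of the 6 fits that left out a library, those without replicate 1 or 2 of either group.

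Proliferation and growth genes likewise held no call. Limma called 0 of 36 DNA replication and mitosis genes (median -0.32, 6 at an unadjusted p under 0.05). Of the 36, 4 had a positive difference, and the quartiles over all genes tested were -0.241 and 0.304. Mki67, which marks dividing cells, was 3155, 3518 and 3908 in germ-free and 3985, 3659 and 3980 in KO-labelled libraries (-0.14 ± 0.19, SE; limma adjusted p = 0.79). Limma called 0 of 17 CDK inhibitors and G1 cyclins, 0 of 44 nuclear genes of oxidative phosphorylation and 0 of 46 ribosomal proteins, with 3, 1 and 1 at an unadjusted p under 0.05. Of 20 myeloid priming and 24 immediate early genes, which answer signals and cell handling within minutes, 0 were called, with 1 and 2 at an unadjusted p under 0.05. Fos, one of the latter genes, was 56588, 179438 and 51465 in germ-free and 30874, 31365 and 105230 in KO-labelled libraries, highest in germ-free replicate 2 and KO-labelled replicate 3.

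The 13 protein transcripts of the mitochondrial genome had a median of -0.72 and all had a negative difference, with 3 called lower in germ-free HSCs. mt-Nd1, a complex I subunit, had normalized counts of 53330, 44428 and 58260 in germ-free, 116093, 70077 and 204836 in KO-labelled, and 50328, 84295, 47558 and 85374 in WT libraries (-1.20 ± 0.27, SE, against KO-labelled; limma adjusted p = 0.0169). mt-Co1 and mt-Atp8, subunits of complex IV and of ATP synthase, differed by -0.88 ± 0.22 and -1.01 ± 0.26 (SE; adjusted p = 0.041 and 0.0421). KO-labelled replicate 3 was the highest library for all 3, and without it 0 of the 13 passed. None passed without germ-free replicate 2 or KO-labelled replicate 1 either, and 7 passed without KO-labelled replicate 2.

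Single genes outside the lists also differed. Skint3, an immunoglobulin-family gene (chromosome 4, 112232245 to 112300468), was listed at 0 in all 3 KO-labelled libraries. It stood at 302, 244 and 188 in germ-free and 167, 223, 177 and 196 in WT libraries (limma adjusted p = 2.31e-08 for germ-free against KO-labelled). Mettl7a2, a methyltransferase-like gene (chromosome 15, 100353200 to 100361840), had 0.913, 0 and 0.870 in germ-free, 74.3, 72.4 and 91.1 in KO-labelled, and 0 in all 4 WT libraries (adjusted p = 8.92e-08). For these genes the KO-labelled libraries stood apart from the other 2 groups. KO-labelled libraries also lay above the other 2 groups for Elavl4, a neuronal RNA-binding protein, with 24.2, 16.9 and 5.06 in germ-free, 241, 241 and 220 in KO-labelled, and 71.4, 44.4, 6.42 and 8.46 in WT libraries (-4.07 ± 0.76, SE, against KO-labelled; adjusted p = 0.00272).

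The naming rule took 3 replication-dependent histone genes, which encode proteins that package new DNA, and no list of histones was tested. Hist1h4m was listed at 0 in all 3 germ-free libraries, against 135, 110 and 120 in KO-labelled and 73.4, 96.3, 47.7 and 87.8 in WT libraries (limma adjusted p = 1.12e-08). Hist1h2ad had 2902, 3928 and 2343 in germ-free, 506, 388 and 216 in KO-labelled, and 658, 585, 314 and 675 in WT libraries (3.10 ± 0.56, SE, against KO-labelled; adjusted p = 0.00215). Hist1h2ai had 283, 198 and 189 against 15.5, 15.9 and 0 in KO-labelled libraries, a call that ended without any germ-free library or KO-labelled replicate 3. Histone genes of the same family are near-identical copies that can share reads, so the single values of these genes are uncertain.

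Lower genes at low levels included Plek2, a relative of pleckstrin, with 23.8, 0 and 0 normalized counts in germ-free against 43.5, 68.3 and 102 in KO-labelled libraries (-4.55 ± 0.76, SE; limma adjusted p = 7.25e-04). Tnc, the matrix protein tenascin C, was listed at 0 in all germ-free libraries and at 107, 8.77 and 199 in KO-labelled ones, and its call ended without KO-labelled replicate 3. The adaptor gene Shc4 and the Ras activator gene Rasgrp3 were lower by -4.21 ± 0.99 and -4.01 ± 0.96 (SE; adjusted p = 0.0219 and 0.025), and the cornified envelope gene Sprr2a2 by -5.08 ± 1.28 (SE; adjusted p = 0.0395). Higher genes included Sv2c, of synaptic vesicles, Ccdc187, and Tespa1, of T cell receptor signalling, at 4.26, 3.53 and 3.43 (adjusted p = 0.0289, 0.0344 and 0.0441). The calls of Shc4, Rasgrp3, Sprr2a2, Sv2c, Ccdc187 and Tespa1 each ended in at least 3 of the 6 fits that left out a library.

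Some called genes were neighbours. Of the 228, 47 fell in 8 runs, defined from the calls themselves as at least 4 called genes with gaps of at most 2 Mb, so that the share called within a run is high by construction. On chromosome 15, from 98831669 to 100729376 (GRCm38), 9 of 43 tested genes were called. Among them, Smarcd1, of the SWI/SNF remodelling complex, had 708, 805 and 713 in germ-free, 220, 290 and 241 in KO-labelled, and 736, 696, 723 and 787 in WT libraries (1.57 ± 0.18, SE, against KO-labelled; limma adjusted p = 2.88e-06). Kmt2d, a histone H3 lysine methyltransferase, had 8700, 7322 and 7532 in germ-free, 4764, 4609 and 4863 in KO-labelled, and 7310 to 9020 in WT libraries (0.72 ± 0.10, SE; adjusted p = 1.02e-04). For both, germ-free and WT libraries overlapped and KO-labelled libraries lay below them. On chromosome 8, from 83608193 to 85098282, 7 of 57 were called, among them Dnajb1, Trmt1, Man2b1, a lysosomal mannosidase, and Calr, the chaperone calreticulin. Man2b1 had 6283, 4449 and 7486 in germ-free, 12215, 10528 and 9482 in KO-labelled, and 5945 to 6602 in WT libraries (-0.85 ± 0.14, SE, against KO-labelled; adjusted p = 6.96e-04).

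On chromosome 13, from 12259793 to 14039638, 6 of 17 tested genes were called. Another run there, of 8 among 94 tested genes, held the histones named above. The run on chromosome 17, of 4 among 13 tested genes, held Hspa1a and Hspa1b. Among 8 tested genes known to differ between C57BL/6 substrains, Wdfy1 was called, with 2799, 3418 and 2748 in germ-free, 1652, 1893 and 1780 in KO-labelled, and 1099 to 1639 in WT libraries (0.75 ± 0.18, SE, against KO-labelled; limma adjusted p = 0.0238). The call of Wdfy1 ended without germ-free replicate 2 or KO-labelled replicate 1 or 3, and with only the 6 libraries (adjusted p = 0.102). Nnt, which is truncated in C57BL/6J, did not pass (0.17 ± 0.30, SE; adjusted p = 0.85). Genetic background and the labels of the groups cannot be told apart with these libraries.

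At 1 year the same comparison was made in other libraries, 2 germ-free and 4 KO-labelled. Limma called 259 genes (1.53%), 87 higher (0.513%) and 172 lower (1.01%) in germ-free HSCs. Of these, 73 were called at both ages, 72 with 1 sign (35 higher and 37 lower), which is 32.0% of the 2-month and 28.2% of the 1-year calls. Of the 228 genes called at 2 months, 202 had the same sign at 1 year and 26 the other. The share of same signs over all genes tested was not counted. Both ages were tested in 1 fit with a shared estimate of each gene's spread, so their calls are not independent. In the 8 runs, 30 of 47 called genes were called with 1 sign at 1 year too, against 42 of the 181 outside them. All 7 of the run on chromosome 8 and 7 of the 9 on chromosome 15 were among them.

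**Figure D4:**
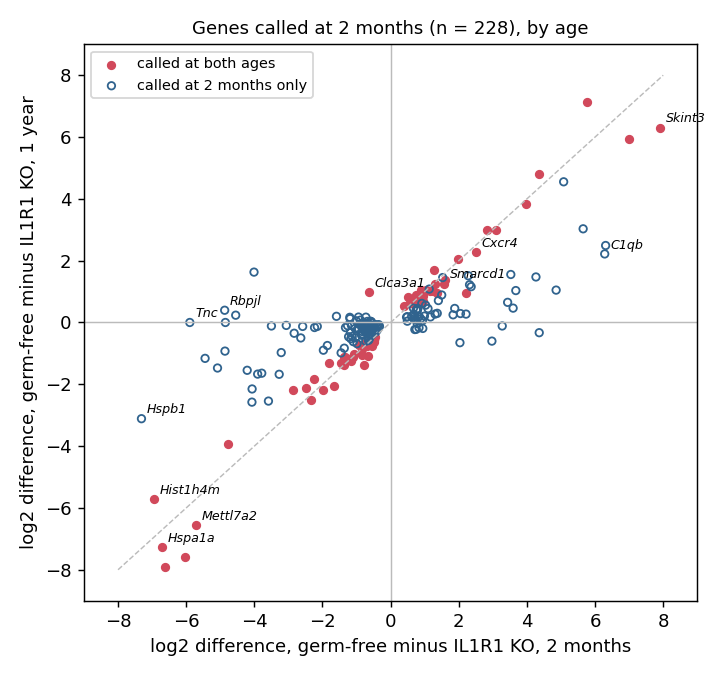
Log2 difference, germ-free minus KO-labelled HSCs, at 2 months (horizontal) and 1 year (vertical) for the 228 genes called at 2 months. Filled points were called at both ages (73), open points at 2 months alone (155), and the dashed line marks equal differences. Skint3, Mettl7a2 and Hspa1a lie far out on both axes, whereas Rbpjl and Tnc lie near 0 at 1 year, and Clca3a1 is the filled point of opposite sign.

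The chaperone difference was present at 1 year, with 6 of 20 members lower and 0 higher (median -0.49). Hspa1a stood at 75.7 and 350 in germ-free and 20357, 63727, 6812 and 47680 in KO-labelled libraries (-7.28 ± 1.08, SE; limma adjusted p = 5.3e-04). Dnajb1 passed too, at -1.81 (limma adjusted p = 0.0108), whereas Hspb1 did not, at -3.11 (limma adjusted p = 0.113). Sterol synthesis genes had 6 lower and 0 higher (median -0.62), with Dhcr7 at -1.32 ± 0.26 (SE; adjusted p = 0.0064). Cxcr4 had 429 and 429 against 121, 79.2, 73.8 and 83.8 (2.27 ± 0.39, SE; adjusted p = 0.0011). Of the glucocorticoid-induced genes 3 were higher (median 0.23). Fkbp5 differed by 1.69 ± 0.24 and Tsc22d3 by 0.96 ± 0.25 (SE; adjusted p = 1.5e-04 and 0.045), whereas Per1 and Klf9 did not pass at 0.27 ± 0.49 and 0.25 ± 0.34. The 13 mitochondrial transcripts had 0 called at 1 year and a median of 0.17, with 12 positive. For the change with age, 12 of the 13 were at an unadjusted limma p under 0.05, against 7.85% of all genes, and 0 were called. Lymphoid priming genes had 0 called at 1 year and a median of -0.02. Of 28 genes of the interleukin-1 family, 1 was called higher and 0 lower at 1 year, and of 30 microbial sensors 0 were called.

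The ageing signature had 0 lower and 4 higher members at 1 year, with a median of 0.16 against -0.46 at 2 months. The change of the difference with age was tested over all genes, and 2 passed (0.0118%), both of that signature. Rbpjl had 536 and 413 in germ-free and 396, 197, 345 and 601 in KO-labelled libraries of 1 year, and its difference at 2 months was -5.27 ± 0.90 (SE; limma adjusted p = 0.022) relative to that at 1 year. Clca3a1 had 979, 906 and 873 in germ-free against 1560, 1100 and 1730 in KO-labelled libraries at 2 months. At 1 year it had 6272 and 7188 against 3464, 3427, 3298 and 3347. Its difference was -0.65 ± 0.14 at 2 months and 0.99 ± 0.15 at 1 year (SE), and the change between ages was -1.63 ± 0.21 (SE; adjusted p = 3.08e-04). The other 30 members tested, Selp and Nupr1 among them, did not pass. The count of 2 was 0 with only the 4 groups compared and 17 without germ-free replicate 2 of 1 year.

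Set beside WT at 2 months, germ-free HSCs differed in 102 genes (0.601%; 51 each way) and KO-labelled HSCs in 69 (0.407%; 41 higher and 28 lower). For Cxcr4, Dhcr7, Sqle, Fkbp5, Tsc22d3, Selp, Sult1a1 and Hist1h4m, the germ-free minus WT difference passed and the KO-labelled minus WT difference did not. For Skint3, Mettl7a2, Smarcd1, Kmt2d, Man2b1, Dnajb1, C1qb and Elavl4 it was the reverse. Both comparisons share their libraries with the one between the 2 groups, and the only direct test of a difference between germ-free and KO-labelled HSCs is that given above for each gene.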

How the data were processed

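HSC libraries were made by Smart-seq2 and tagmentation and read from 1 end, per the labels' protocols. The submitters' processing notes list DESeq2 1.26.0, Salmon 1.2.0.0, cutadapt 2.10 and FastQC 0.11.9, and the build GRCm38 (mm10). The authors deposited normalized counts, here treated as a signal. Whether each gene's estimate was divided by 1 factor per library could not be told from the values. Within a tolerance of 0.001, 9.70% to 18.4% of low values per library were whole reads, so reads could not be recovered and no count model was used. Depth was estimated by taking the most common low value of a library as 1 read, and is approximate.

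Values entered limma 3.58.1 (R 4.3.3) as log2(normalized count + 1), which understates changes of low genes. Genes at 10 or more in at least 3 of the 30 libraries were kept (16958 of 35727). All 30 libraries entered 1 linear model with 8 group means and a trended, robust empirical Bayes step. Calls needed a two-sided Benjamini-Hochberg adjusted p under 0.05, adjusted within each comparison over every gene tested. The fit was tested on simulated data before use. Of 50 genes changed by 0.5 on the log2 scale, 7 were recovered. At changes of 1, 2 and 4 it was 25, 41 and 45 of 50, and 5 unchanged genes were called. The simulated noise was drawn separately for each gene and library, so it held no spread shared between genes. One library, KO-labelled replicate 1 of 1 year, carries an age label of 2 months. It was kept at 1 year by title, and the other placement was tried.

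The members compared and the gene lists were chosen with earlier results of these data known. Named genes were Il1r1, then the 12 largest rises and falls among called genes with a mean of at least 50 in a group and no overlap between groups, then up to 4 called members of each list with the smallest p, then 11 genes named whatever their call. Other genes (Hlf, Adgre1, Hsph1, Hspe1, Hspa8, Hsp90aa1, Hmgcs1, Idi1, Clu, Cldn12, Osmr, Clca3a1, Hif3a, Zfand2a and genes of the runs) were named after their values were seen. Positions come from GENCODE M21 and start-site windows from RefSeq, both on GRCm38. Symbols matched 35493 of the genes. Sex-linked transcripts were tested as a list of 4, with 0 called by limma and 0 at an unadjusted p under 0.05. No 2 libraries held identical values (highest correlation across genes 0.968). Alternatives covered pseudocount, filter, scaling, weights, covariates, libraries in the fit and libraries left out. Figures were drawn with Python 3.11.15 and matplotlib 3.10.9. A few genes taken by the naming rule are not reported here.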

Additional observations from a re-analysis of the deposited data

Results flagged for a closer look

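In 10 of 116 groups of 4 libraries examined, 1 library stood far from the other 3. For normally distributed values, chance alone sets about 1 in 20 such groups apart. The values examined were unlogged counts, so that rate need not hold here. In KO-labelled libraries of 1 year these were Skint3 at 13.43 normalized counts in replicate 1, Sv2c at 27.94 in replicate 1, Blnk at 129 in replicate 4, Nupr1 at 5389 in replicate 2, Msmo1 at 1348 in replicate 4 and Mpo at 12930 in replicate 2. In WT libraries of 2 months they were Tespa1 at 169.8 in replicate 2, Tnc at 28.85 in replicate 4, Rbpjl at 25.35 in replicate 1 and Selp at 3275 in replicate 4. None of the 6 libraries compared in the report belongs to these groups, which held 4 libraries each.

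The difference between germ-free and KO-labelled HSCs changed with age for 2 genes by limma's interaction test. At 2 months relative to 1 year it was -5.267 for Rbpjl (adjusted p = 0.022) and -1.634 for Clca3a1 (adjusted p = 3.08e-04) on the log2 scale.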

How the results depend on the processing

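No call among the 50 called genes of the naming rule changed its sign in any alternative, and 27 kept their call in every fit that left out 1 library, whereas 23 lost it in at least 1 such fit. Over all alternatives, the replicate block included, 0 of the 50 kept their call throughout. The cause of the following changes was not tested. The count of genes called at 2 months (228) was 144 with array quality weights, 79 with only the 10 libraries of 2 months, 43 with only the 6 libraries compared, 113 without the 4 libraries of high Mpo, and 155 to 201 with 1 library left out. The 1-year count (259) was 149 with the library of disagreeing age labels at 2 months, 83 with weights, 67 with only the groups compared, and 116 to 251 with 1 library left out, the lowest being without germ-free replicate 1. It was 160 and 168 without KO-labelled replicates 1 and 3. The 2 genes that changed between ages became 1 with weights, 18 without a filter, 0 with only the groups compared, 1 with a pseudocount of 5, and 1 to 17 with 1 library left out. The germ-free minus WT count (102) was 56, 37, and 67 to 109 under weights, only the groups compared, and 1 library left out (67 without germ-free replicate 3). The KO-labelled minus WT count (69) was 40, 19, and 39 to 69 (39 without KO-labelled replicate 3). The other 71 settings of these 5 counts stayed within 1.5 times.

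No label says that a shared replicate number pairs samples, and the correlations did not settle it. Deviations of same-numbered germ-free and KO-labelled libraries correlated at 0.036, 0.165 and 0.059 across genes, with 0.165 (replicate 2) the highest of all pairs. Differently numbered libraries correlated at -0.106 to 0.056, and germ-free replicate 1 correlated best with KO-labelled replicate 3 (0.056). With the replicate number as a block in the fit of only the groups compared, counts were 4 at 2 months, 1 at 1 year, 0 for the change between ages, 0 for germ-free minus WT and 9 for KO-labelled minus WT. List counts were followed under settings chosen after seeing the data. Depth and 2 or 3 libraries a group limit what could be detected.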

Other observations

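Further called genes stood outside the groups described. Hif3a, a hypoxia-inducible factor subunit, had normalized counts of 1250, 1657 and 1044 in germ-free, 302, 174 and 358 in KO-labelled, and 419, 399, 476 and 214 in WT libraries (2.28 ± 0.46, SE, germ-free minus KO-labelled; limma adjusted p = 0.00577). Its call held with each of the 6 libraries left out. Zfand2a, which is induced by arsenite and heat, stood at 555, 749 and 507 in germ-free and 1163, 1086 and 2839 in KO-labelled libraries (-1.36 ± 0.31, SE; adjusted p = 0.0197), a call that ended without germ-free replicate 1 or 3 or KO-labelled replicate 3.

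Xbp1, the transcription factor of the unfolded protein response, was the 1 called gene of 20 in that list, with 8377, 5583 and 8161 in germ-free and 4513, 4276 and 4507 in KO-labelled libraries (0.71 ± 0.17, SE; limma adjusted p = 0.0214). Calr, of class I peptide loading, was the 1 called gene of 20 in its list, with 8841, 7125 and 9564 against 14260, 13053 and 12507 (-0.65 ± 0.16, SE; adjusted p = 0.0372). Each of these 2 calls ended in 5 of the 6 fits that left out a library. Of 20 megakaryocyte and platelet genes, Itgb3 was higher and Plek, the platelet protein pleckstrin, lower, at 605, 752 and 974 in germ-free against 1693, 1287 and 2652 in KO-labelled libraries (-1.23 ± 0.27, SE; adjusted p = 0.0117). The call of Plek ended without germ-free replicate 1 or KO-labelled replicate 3.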
